A study of Mus musculus with 105 samples.

Results

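Acta2, Tagln, Cnn1, Myl9, Tpm1, Tpm2, Cald1, Thbs1 and Emp1 are the subject of this account. They were chosen by their measured levels, as genes with a late rise, a difference between the 2 deletion lines on days 3 and 4 and an uneven spread over single cells, so these patterns are given as values and not tested. All 9 were among the 52108 genes of the bulk count tables and all 9 passed the filter on low counts. Female mouse embryonic stem cells (mESCs) were taken through the onset of X inactivation by withdrawing 2i (inhibitors) and Lif (a cytokine). Both hold the cells in the ground state. Cells were sampled before withdrawal (day 0) and on days 1, 2, 3 and 4 of differentiation in serum on fibronectin-coated plates. Day 0 cells were kept on gelatin in medium that also held serum, so matrix and medium changed together after day 0. The TX1072 line (clone A3) is an F1 hybrid between C57BL6/J (B6) and Cast/EiJ (Cast) that carries a doxycycline-responsive promoter before Xist on the B6 allele and rtTA in Rosa26. TXdXicB6 (clone TxdXic_A1) and TXdXicCast (clone TxdXic_A6) derive from it and lack the X-inactivation centre on the B6 or the Cast X chromosome. X inactivation is random in TX1072. In the deletion lines the paper reports it as nonrandom, on the Cast X in TXdXicB6 and the B6 X in TXdXicCast. The B6 deletion takes in Xist, with the promoter inserted before it, so TXdXicCast keeps that promoter and TXdXicB6 does not. Each deletion line was 1 clone, so an effect of the deletion and of the clone cannot be told apart. Bulk RNA of each line was sequenced in 3 libraries per day, 45 in all, with 19827011 to 39628784 counts per library for TX1072, 20246434 to 49962859 for TXdXicB6 and 16906263 to 57920260 for TXdXicCast. The TX1072 libraries were made with another kit and sequencer than those of the deletion lines, so both tables are set side by side and not tested against each other. TX1072 single cells were captured from 1 culture per day, and 1472 cells retained by the study were used here (277, 325, 341, 257 and 272 from day 0 to day 4), with a median of 132847 unique molecular identifiers (UMIs, counted RNA molecules) per cell.

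Actin filaments, tropomyosins and myosin II form the contractile apparatus of smooth muscle, and stress fibres of non-muscle cells use many of the same proteins. Their genes are classical targets of serum response factor (SRF), which binds a promoter element called the CArG box. SRF works with myocardin-family cofactors (MRTFs), which enter the nucleus when the pool of free actin monomers falls, for instance after cells spread on an adhesive matrix or meet serum. Among the 9 genes, Acta2 encodes smooth muscle alpha-actin, a filament subunit. Myl9 encodes a regulatory light chain of myosin II, and Tpm1 and Tpm2 encode tropomyosins that lie along the filament. Tagln (transgelin), Cnn1 (calponin) and Cald1 (caldesmon) encode actin-binding proteins. Thbs1 encodes thrombospondin-1, a secreted matrix protein that can activate latent TGF-beta, and Emp1 encodes an epithelial membrane protein.

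The genes lie on 5 autosomes of GRCm38 (GENCODE M21), and all are annotated as protein-coding. Acta2 is at chr19:34241090-34255590, minus strand, Tagln at chr9:45929619-45936058, minus strand, Cnn1 at chr9:22099216-22109630, plus strand and Tpm1 at chr9:67022590-67049406, minus strand. Myl9 is at chr2:156775420-156781658, plus strand, and Thbs1 at chr2:118111876-118127133, plus strand. Tpm2 is at chr4:43514711-43523765, minus strand, Cald1 at chr6:34598500-34775473, plus strand and Emp1 at chr6:135362545-135383173, plus strand.

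The RefSeq promoter table (GRCm38.p6) held 7 of the 9 genes; Tagln and Thbs1 were without an entry. In the 250 bases before each start, both strands were searched for the CArG box, a 10-letter element with CC at one end, GG at the other and a core of 6 letters that are each A or T, and for boxes with 1 other letter in that core. The exact form occurred before the start of Myl9 alone among the 7, and in 1.47% of all 32817 promoters. Allowing 1 other letter, Acta2 and Myl9 held boxes, against 8.60% of all promoters. They are shown because Acta2 had the largest log2 fold of the 9 genes from day 2 to day 4 in each line and Myl9 the exact box, with every box in capitals. The Myl9 stretch (chr2:156775214-156775419, plus strand) ends before the first annotated start, and its first box is the exact form. The Acta2 boxes begin 84 and 34 bases before the RefSeq start, within the longer first exon that GENCODE M21 gives this gene (chr19:34255438-34255467 and chr19:34255388-34255417, minus strand).
Myl9: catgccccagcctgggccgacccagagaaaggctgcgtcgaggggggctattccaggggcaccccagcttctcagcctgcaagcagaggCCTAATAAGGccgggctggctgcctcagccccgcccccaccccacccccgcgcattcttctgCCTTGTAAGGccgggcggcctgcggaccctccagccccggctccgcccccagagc
Acta2, box 84 bases before the start: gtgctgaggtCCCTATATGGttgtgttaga
Acta2, box 34 bases before the start: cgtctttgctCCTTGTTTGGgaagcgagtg
A match describes letters in this window, and no binding was measured.

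Levels are given as CPM, read counts relative to the size of the library, scaled by the TMM method within each table. Since counts per gene grow with transcript length, bulk CPM are compared between samples and not between genes. In a bulk sample, a change in the number of expressing cells and a change in RNA per cell cannot be told apart.

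Acta2 was almost silent until day 2. In TX1072, replicates 1, 2 and 3 had 0.0271, 0 and 0.0450 CPM on day 0, 0.204, 0.519 and 0.304 on day 1 and 0.343, 0.171 and 0.0545 on day 2. The values were 9.50, 5.05 and 6.51 CPM on day 3 and 120.4, 82.9 and 123 on day 4. Every day 3 library was thus above every earlier one, and every day 4 library above every day 3 library. The fitted log2 fold of day 4 over day 2 was 9.25 ± 0.37 (SE, n = 3 against 3). In TXdXicB6, Acta2 had 0.126, 0.262 and 0.144 CPM on day 2, 1.96, 1.29 and 1.66 on day 3 and 26.8, 44.1 and 21.1 on day 4. In TXdXicCast it had 0.275, 0.219 and 0.266 CPM on day 2, 4.69, 4.22 and 23.4 on day 3 and 115, 111 and 190.3 on day 4. The lines overlapped on day 2 and not on days 3 and 4, where all TXdXicCast libraries were the higher ones. On day 3, replicate 3 of TXdXicCast stood apart from the other 2 libraries of its group, by 23.4 CPM against at most 4.69 CPM, and day 3 values are given below with and without it.

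In TX1072, the mean of Tagln went up by a smaller factor than that of Acta2 from day 3 to day 4. The TX1072 libraries had Tagln levels of 2.32, 3.88 and 3.19 CPM on day 2, 192, 143 and 160.2 on day 3 and 402, 414 and 443 on day 4, from 0.0541 to 0.114 CPM on day 0. The mean rose 52.7-fold from day 2 to day 3 and 2.54-fold from day 3 to day 4, whereas Acta2 rose 37.1-fold and 15.5-fold over the same steps. In the deletion lines, day 4 Tagln levels were 243, 279 and 241 CPM in TXdXicB6 and 456, 542 and 545 CPM in TXdXicCast. The lines did not overlap.

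Thbs1 had an early peak as well as a late rise. In TX1072 it had 0.676, 2.20 and 1.53 CPM on day 0, 11.4, 16.4 and 15.4 on day 1, 3.54, 3.74 and 4.66 on day 2, 108, 71.0 and 77.7 on day 3 and 121, 111 and 145 on day 4. All day 1 libraries lay above all day 2 libraries, in each of the 3 lines. Myl9 showed a similar first step in TX1072, with 5.51, 7.10 and 5.07 CPM on day 1 and 3.81, 3.66 and 3.19 on day 2, before 34.7, 33.2 and 30.5 on day 3 and 27.0, 27.8 and 32.2 on day 4. In TX1072 the Myl9 mean was therefore highest on day 3, although the day 3 and day 4 ranges overlapped.

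Tpm1 and Cald1 were already present in undifferentiated cells. Tpm1 had 73.5, 75.3 and 65.7 CPM on day 0 of TX1072, 143, 157 and 139 on day 2 and 1285, 1246 and 1406 on day 4. Cald1 had 63.7, 49.3 and 53.1 CPM on day 0, 93.3, 91.3 and 113 on day 2 and 276, 302 and 412 on day 4. Both rose from a base that Acta2, Tagln and Cnn1 lacked. Cnn1 and Tpm2 climbed at every step of the TX1072 means, Cnn1 from between 0.180 and 0.244 CPM on day 0 to between 50.4 and 59.7 CPM on day 4, and Tpm2 from between 1.84 and 2.50 CPM on day 0 to between 48.6 and 61.1 CPM on day 4.

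Emp1 had a different course from the other 8 genes. In TX1072 it had 8.90, 5.68 and 7.73 CPM on day 0, 11.8, 9.82 and 11.3 on day 1, 1.79, 1.34 and 0.818 on day 2, 0.538, 0.706 and 0.758 on day 3 and 4.07, 3.15 and 3.78 on day 4. It was highest on day 1, lowest on day 3 and partly recovered on day 4, so that every day 4 library stayed below every day 0 library. In TXdXicB6 the day 4 libraries had 0.619, 0.825 and 1.46 CPM, all below the 2.05 to 2.58 CPM of day 2. In TXdXicCast they had 2.27, 3.10 and 7.19 CPM, all above the 0.863 to 2.02 CPM of day 2.

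**Figure D1:**
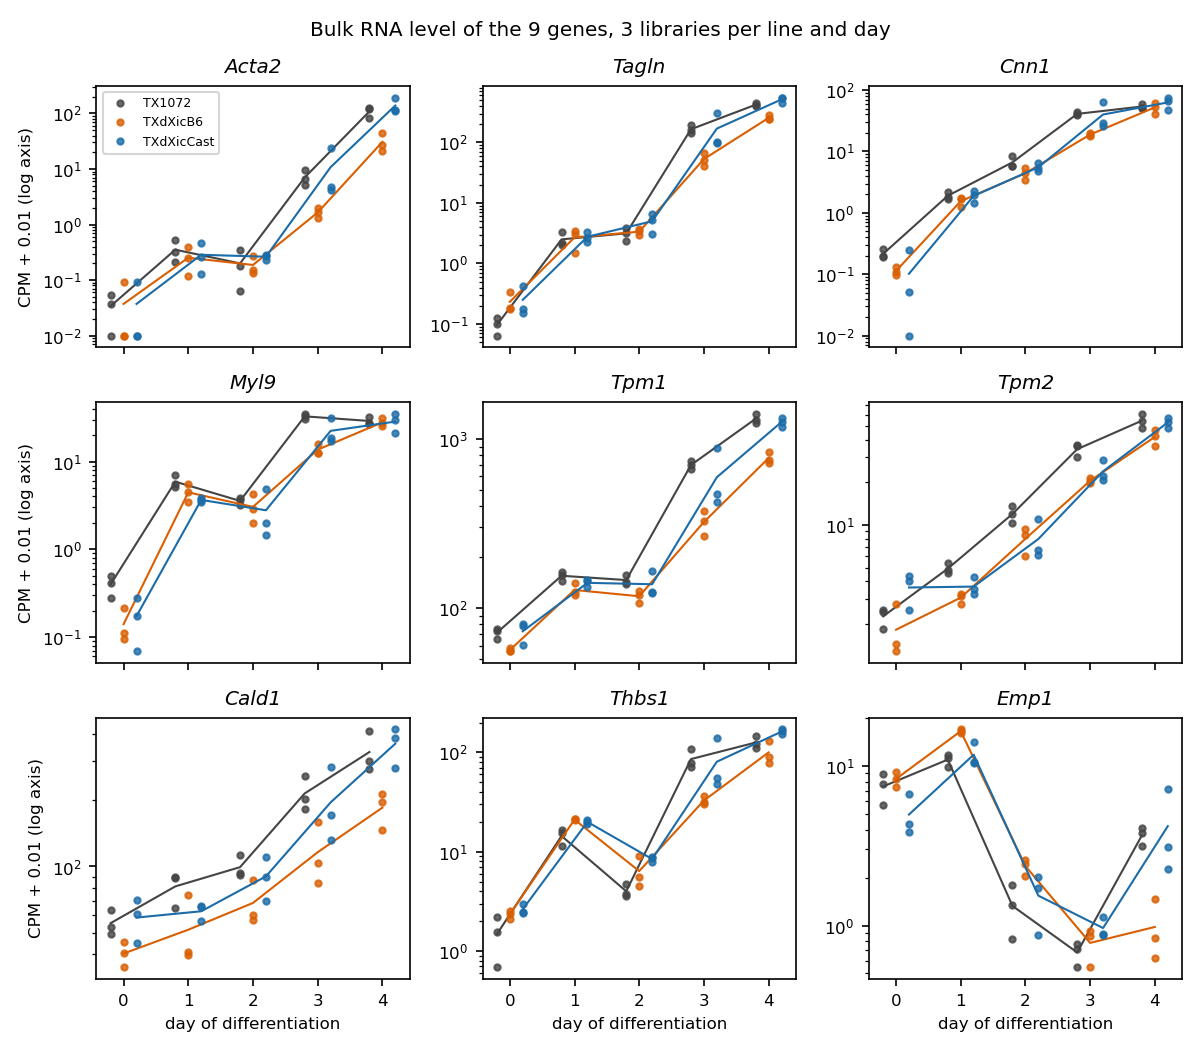
Level of each gene in bulk RNA (CPM plus 0.01, log axis, the scale differing between panels) against day of differentiation; points are libraries and lines join the means of 3 libraries per line and day. Acta2 and Tagln stay low to day 2 and climb steeply to day 4, TXdXicB6 (orange) lies lowest for both on days 3 and 4, and Emp1 does not come back to its day 1 level.

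From day 2 to day 4 in TX1072, the log2 folds were 9.25 ± 0.37 for Acta2, 7.05 ± 0.21 for Tagln, 4.97 ± 0.27 for Thbs1 and 3.16 ± 0.11 for Tpm1 (edgeR, ± SE). They were 3.03 ± 0.16 for Myl9, 3.02 ± 0.15 for Cnn1, 2.19 ± 0.14 for Tpm2, 1.73 ± 0.17 for Cald1 and 1.50 ± 0.24 for Emp1. The median over the 9 genes was 3.03, beside 0.00 over all 18871 genes tested. The medians were 3.21 in TXdXicB6 and 3.36 in TXdXicCast, where the range over the 9 genes ran from -1.32 to 7.40 and from 1.45 to 9.04. From day 0 to day 2 in TX1072, 8 genes lay above and Emp1 below their day 0 libraries, beside 30.8% and 28.4% of all genes, and nothing is read from it since the choice used these levels. The folds ran from -2.52 for Emp1 to 5.20 for Tagln on the log2 scale.

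Related genes outside the 9 were grouped in 6 lists and tested with edgeR's quasi-likelihood test (Benjamini-Hochberg adjusted over all genes, threshold 0.05). From day 2 to day 4 of TX1072, 52 of the 65 listed genes that could be tested rose and 2 fell. Over all genes the calls were 26.3% higher and 23.5% lower. The median log2 fold was 1.56 over the listed genes and 0.00 over all genes. Of the MRTF-SRF cofactors and targets, 14 of 17 rose and none fell, with a median log2 fold of 1.73. Vcl (vinculin, which links integrins to actin) rose by 2.02 ± 0.11 on the log2 scale, Fhl1 by 2.06 ± 0.12 and Tpm4, another tropomyosin gene, by 2.19 ± 0.15. The alpha-actinin gene Actn1 rose by 1.62 ± 0.11, and these 4 had adjusted p of at most 2.1e-09. The cofactor genes Mrtfa and Mrtfb did not pass the test (0.21 ± 0.23 and 0.31 ± 0.14, adjusted p = 0.48 and 0.0704). Srf itself rose by 0.62 ± 0.18 with adjusted p = 0.00733, a call that was lost without replicate 2 or without replicate 3.

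Among contractile smooth muscle genes, 7 of 10 tested rose (median log2 fold 1.03), led by Cnn2 (calponin 2), which went from 14.5 to 248 CPM on average. Csrp1 rose from 55.9 to 346 CPM, and Lmod1 rose by 2.49 ± 0.24 on the log2 scale (adjusted p = 1.5e-07). Myh11, the smooth muscle myosin heavy chain, was at 0.581 CPM on day 4 and did not pass the test (adjusted p = 0.255). Mylk and Synpo2 did not pass either, and Actg2 and Myocd, the gene of myocardin, were too low to be tested in TX1072.

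Of the immediate early genes that SRF serves with ternary complex factors, 5 of 6 rose from day 2 to day 4 (median log2 fold 2.51), including Junb (2.98 ± 0.29) and Fos (2.27 ± 0.45). Of the YAP-TEAD targets, which also respond to cell spreading, 7 of 9 rose (median 1.93), among them Ccn1 (1.99 ± 0.15), Amotl2 (1.65 ± 0.13), Axl (2.90 ± 0.23) and Nt5e (2.92 ± 0.24). In the TGF-beta pathway 9 of 12 rose and 2 fell (median 1.15). The ligand gene Tgfb2 rose by 4.96 ± 0.35 and the receptor gene Tgfbr2 by 2.98 ± 0.23, while Skil, a repressor of SMAD signalling, fell from 548 to 242 CPM and Tgfbi was the other gene that fell. Of the focal adhesion and fibronectin receptor genes, 10 of 11 rose (median 1.01), with Parva (2.14 ± 0.12), Ilk (1.69 ± 0.13), Itgb1 (1.01 ± 0.11) and Itgb3 (1.72 ± 0.19) at the smallest adjusted p, and Fn1 (fibronectin) did not pass (-0.51 ± 0.25, adjusted p = 0.0953).

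In TXdXicB6, 52 of 67 listed genes rose and 5 fell from day 2 to day 4, against 23.9% and 22.9% of all genes. In TXdXicCast 54 rose and 3 fell, against 25.4% and 24.5%. With the replicate number as a block, 5 fell. The median log2 folds of the listed genes were 1.29 and 1.67, beside 0.03 and 0.02 over all genes. Between day 0 and day 2 of TX1072 the lists moved in both directions, with 19 genes higher and 26 lower of 65, against 28.8% and 27.2% of all genes, and a median log2 fold of -0.21 against -0.00. The immediate early genes fell in 5 of 6 cases over that step, with Junb at -1.98 ± 0.28 and Fos at -2.66 ± 0.45. Among the MRTF-SRF list Zyx rose by 2.51 ± 0.17 while Lima1 went to -1.89 ± 0.14 and Wdr1 to -1.52 ± 0.13 (log2, each called lower). Among contractile genes Pdlim7 rose by 2.45 ± 0.14 and Synpo2 by 4.29 ± 0.28, the step at which Csrp1 was called lower (-0.86 ± 0.12).

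**Figure D2:**
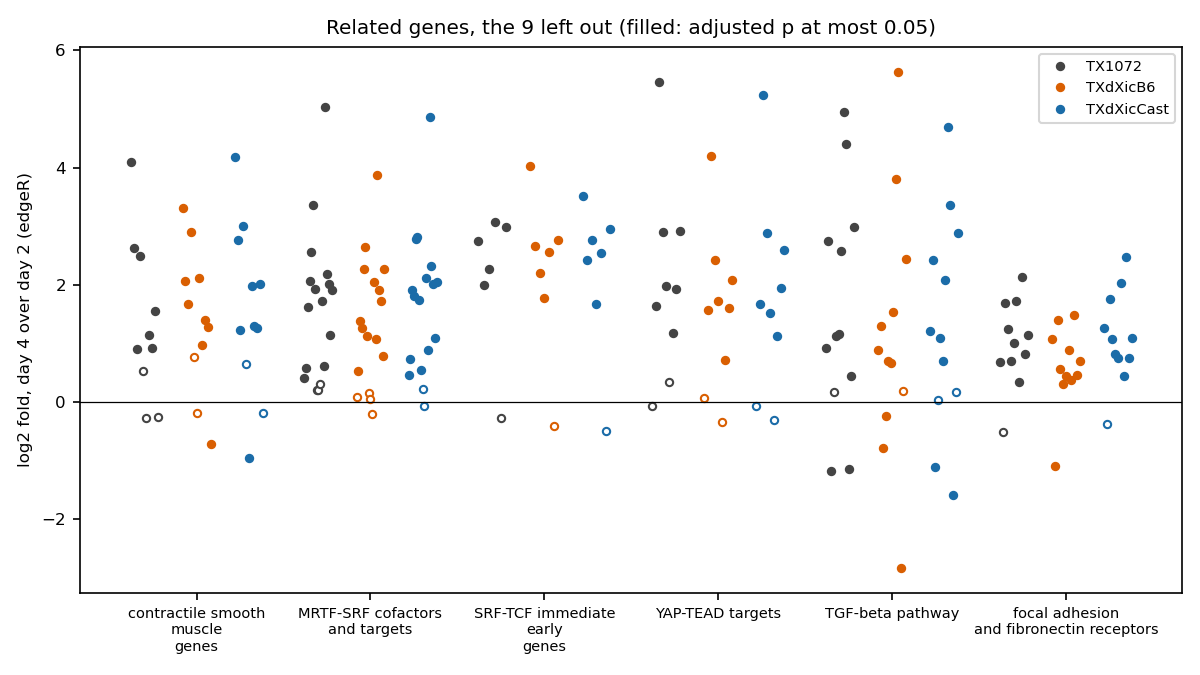
Log2 fold of day 4 over day 2 (edgeR) for each tested gene of the 6 related lists, the 9 genes left out; grey, orange and blue are TX1072, TXdXicB6 and TXdXicCast, and filled points passed an adjusted p of 0.05. Most points lie above 0 in all 3 lines (52 of 65, 52 of 67 and 54 of 67 called higher).

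To ask which other genes followed the same course in bulk, the mean z-score of the 9 genes was correlated with every other gene with a mean count of at least 100 in both tables (11464 genes), and the smaller of Pearson's r over 15 TX1072 and over 30 deletion-line libraries was taken. These libraries share days, so r describes likeness of course and carries no p. Among the 10 highest were Pam, Anxa5, Pdlim2, Rhobtb3, Ghr, Cnn2, Perp, Flt1 and Ehd2, with a smaller r from 0.965 to 0.971. Anxa5 (annexin A5) went from 9.04 CPM on day 2 to 94.6 on day 4 of TX1072. Within the 9, Tpm1 lay closest to the mean course (r = 0.997 and 0.996), and Emp1 had r of -0.388 and -0.448.

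The line comparison asked whether these genes differ with the X chromosome that carries the deletion. Values on days 3 and 4 chose the genes and stand as a description. On day 4 the log2 fold of TXdXicB6 over TXdXicCast was -2.17 ± 0.39 for Acta2, -2.15 ± 0.35 for Emp1, -1.01 ± 0.30 for Tagln and -0.96 ± 0.27 for Cald1. It was -0.71 ± 0.18 for Tpm1, -0.69 ± 0.25 for Thbs1, -0.34 ± 0.21 for Tpm2, -0.27 ± 0.25 for Cnn1 and -0.02 ± 0.28 for Myl9. Acta2 was thus 4.51-fold and Tagln 2.02-fold lower in TXdXicB6, whereas Myl9 ranged over 25.1 to 31.3 CPM in TXdXicB6 and 20.9 to 35.1 CPM in TXdXicCast. The 3 libraries of each line did not overlap for 7 of the 9 genes, all lower in TXdXicB6, beside 12.1% of all genes that were lower without overlap; Cnn1 and Myl9 overlapped. Between libraries of the same replicate number, Cnn1 was lower in TXdXicB6 each time (53.4, 62.1 and 41.1 against 66.1, 74.6 and 47.9 CPM). Myl9 was not, with 25.1 against 20.9 CPM in replicate 3. On day 3 6 of 9 did not overlap and were lower, beside 7.94% of all genes. The 9 genes belong to the selection that these counts describe, so nothing is read from them.

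On day 3 the log2 folds ran from -2.76 for Acta2 to -0.23 for Tpm2. Without the TXdXicCast library that stood apart, Acta2 went from -2.76 to -1.47, Tagln from -1.68 to -0.90 and Thbs1 from -1.31 to -0.66. Without it Cnn1 went from -1.09 to -0.55, Tpm1 from -0.88 to -0.48, Cald1 from -0.75 to -0.39 and Myl9 from -0.72 to -0.38. Tpm2 went from -0.23 to -0.07 and Emp1 from -0.32 to -0.38. All 9 stayed below 0 without it. That library had 879 CPM of Tpm1 and 309 of Tagln, levels between those of the other day 3 libraries and the day 4 libraries of its line.

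The line difference on days 0, 1 and 2 was not named in the choice of genes and was tested. A late rise asks for low levels on those days. These tests are thus not independent of the choice, and no conclusion is drawn from them. On day 1 none of the 9 was called between the lines (edgeR, smallest adjusted p = 0.964), none had an unadjusted p under 0.05, and DESeq2 called none, beside 0.402% of all genes called. On day 2 none was called either (smallest adjusted p = 0.844, 0 at unadjusted p under 0.05, 0 by DESeq2), beside 0.372% of all genes. Emp1 lay higher in all TXdXicB6 libraries than in any TXdXicCast library on both days, as did 6.4% of all genes on day 1 and 7.08% on day 2, with 17.0, 16.1 and 16.6 against 10.6, 14.2 and 10.5 CPM on day 1 (log2 fold 0.49 ± 0.29) and 2.58, 2.42 and 2.05 against 1.71, 2.02 and 0.863 CPM on day 2 (0.63 ± 0.35). That sign was opposite to the day 4 fold of Emp1, -2.15 ± 0.35. Thbs1 did not overlap either on day 1 (21.1, 20.8 and 21.1 against 19.9, 19.2 and 20.7 CPM, log2 fold 0.08 ± 0.26). A test that misses the threshold does not show that the lines were alike. Acta2 had 3 to 11 counts per deletion-line library on day 1 and 4 to 14 on day 2. At such counts its test could hardly pass, so its missing call says nothing about the lines. On day 2 the fold was -0.24 ± 0.18 for Tpm1, -0.55 ± 0.36 for Tagln and -0.54 ± 1.05 for Acta2. On day 0 Tpm2 was called lower in TXdXicB6 (-1.01 ± 0.27, edgeR adjusted p = 0.00781, 2.74, 1.27 and 1.42 against 3.98, 2.51 and 4.32 CPM, which overlapped), beside 19.8% of all genes called. On that day 3 of the 9 genes had an unadjusted edgeR p under 0.05, as did at least the 19.8% of all genes called. Nothing is read from this count. Emp1 lay higher (0.73 ± 0.31) and Tpm1 lower (-0.37 ± 0.18) in TXdXicB6 without overlap, and neither was called. The share of all genes without overlap was not counted for day 0. The day 0 RNA of TXdXicCast was degraded and was fragmented differently, so line and RNA quality cannot be told apart on day 0. Without replicate 3 the Tpm2 call was lost, and with no filter on low counts 4 of the 9 genes were called, beside 10.2% of all genes tested in that fit.

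Of the related genes, 15 of 67 were lower and 1 higher in TXdXicB6 on day 4, beside 4.01% and 1.85% of all genes. Their median log2 fold was -0.26, beside 0.01 over all genes. Of the focal adhesion and fibronectin receptor genes 6 of 11 were lower, including the integrin genes Itgav (-1.16 ± 0.13, adjusted p = 7.8e-06) and Itgb1 (-0.43 ± 0.10, adjusted p = 0.00901) and the adaptor genes Parva (-0.97 ± 0.19, adjusted p = 0.00218) and Ilk (-0.50 ± 0.13, adjusted p = 0.0177). Itgav had 57.1 CPM on average in TXdXicB6 and 128 in TXdXicCast. Of the MRTF-SRF list Flna (-0.60 ± 0.11), Actn1 (-0.67 ± 0.13) and Tpm4 (-0.53 ± 0.16) were lower, and of the contractile list Csrp1 (-0.85 ± 0.17), Synpo2 (-0.60 ± 0.15) and Lmod1 (-1.10 ± 0.31). Tgfb2 (-1.28 ± 0.36) of the TGF-beta pathway and Crim1 (-0.43 ± 0.13) of the YAP-TEAD targets were lower too. The only gene called higher was Egr1 (1.12 ± 0.33, adjusted p = 0.045), a call that DESeq2 and each fit without a replicate number lost. Flna is X-linked and lies outside the deletions. Leaving out replicate 1, 2 or 3 of every group left 5, 7 or 8 lower calls.

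On day 3, 9 listed genes were lower and none higher, beside 0.885% and 0.377% of all genes, and the median log2 fold was -0.20, beside 0.01 over all genes. They were Csrp1 (-0.84 ± 0.17), Lmod1 (-1.40 ± 0.35), Cnn2 (-0.81 ± 0.20), Flna (-0.54 ± 0.11), Tgfb1i1 (-1.58 ± 0.39), Ankrd1 (-2.07 ± 0.46), Itgav (-0.79 ± 0.13), Itgb1 (-0.44 ± 0.10) and Ilk (-0.50 ± 0.13). With the replicate number as a block 14 were lower and 1 higher. Without the TXdXicCast library that stood apart 1 was called lower, and with each replicate number left out of every group 0 to 1. That library had the lowest summed stem cell markers of its group, 931 CPM against 1161 and 1159, and the highest striated muscle markers, 13.5 CPM against 10.1 and 9.00. Its trophoblast markers summed to 71.5 CPM against 46.6 and 35.8, and its endothelium markers to 35.9 CPM against 53.3 and 53.6. Between the lines, day 3 stem cell sums were 1219 to 1319 CPM in TXdXicB6 and 931 to 1161 CPM in TXdXicCast, and striated muscle sums 4.80 to 8.51 and 9.00 to 13.5 CPM. Neither overlapped, whereas the fibroblast, mature smooth muscle, endothelium, endoderm and trophoblast sums of day 3 did overlap between the lines. The part of these markers in the day 3 values was not tested.

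**Figure D3:**
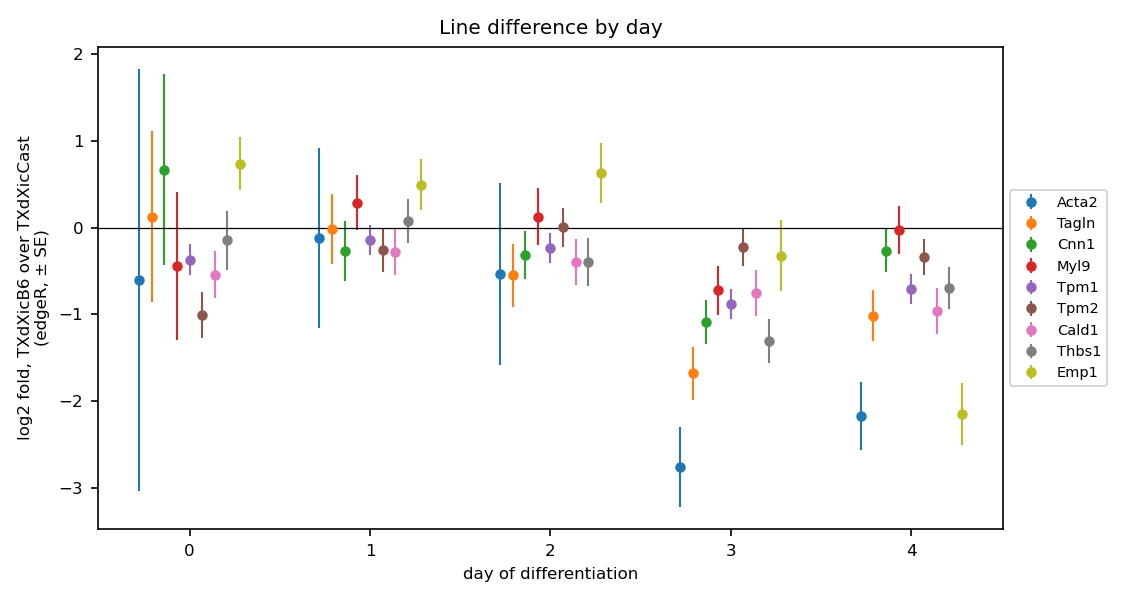
Log2 fold of TXdXicB6 over TXdXicCast (edgeR, bars ± SE, 3 libraries per line and day) for each of the 9 genes by day. Values lie on both sides of 0 on days 1 and 2, with medians of -0.12 and -0.32. They lie below 0 for all 9 genes on days 3 and 4, where they are lowest for Acta2. Day 0 is confounded with RNA quality.

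The lines also differed in markers of other cell types on day 4. Of 8 pluripotent stem cell markers 1 was higher and 1 lower in TXdXicB6, with a summed level of 1063 to 1229 CPM against 784 to 979 CPM in TXdXicCast (Pou5f1 with the most reads). The summed stem cell markers thus did not overlap between the lines. Of the markers that could be tested in the other lists, 3 of 7 fibroblast, 2 of 5 mature smooth muscle, 1 of 6 striated muscle, 2 of 6 endoderm and 2 of 5 trophoblast markers were lower in TXdXicB6, none of these was higher, and no endothelium marker was called. In TXdXicB6 and TXdXicCast libraries, fibroblast markers summed to 23.0 to 27.6 and 28.6 to 38.6 CPM, mature smooth muscle markers to 18.0 to 20.8 and 25.4 to 26.8 CPM and striated muscle markers to 11.6 to 20.5 and 26.4 to 35.7 CPM. Endoderm markers summed to 34.0 to 38.8 and 40.0 to 73.2 CPM, trophoblast markers to 94.4 to 123 and 105 to 161 CPM and endothelium markers to 27.1 to 31.8 and 16.6 to 26.7 CPM. Trophoblast sums overlapped between the lines, and the other 5 did not. Over all genes, 4.01% were called lower and 1.85% higher in TXdXicB6 on day 4. The part of the markers in the line difference of the 9 genes was not tested.

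Checked against defining markers, the cells did not carry a mature smooth muscle profile. On day 4 of TX1072 the 6 mature smooth muscle markers summed to 18.6 to 23.1 CPM per library, with Myh11 at 0.581, Myocd at 0.443 and Actg2 at 0.313 CPM and Synpo2, which had the most reads of the list, at 6.86 CPM; of 4 that could be tested from day 2 to day 4, 2 rose. The smooth muscle name of the gene set thus stands for its genes and not for a cell type. The stem cell markers summed to 3768 to 4403 CPM on day 0, 1209 to 1334 on day 2 and 890.5 to 989.8 on day 4, none being at 0. Fibroblast markers were at 17.7 to 23.8 CPM on day 2 and 22.5 to 23.2 on day 4 (Thy1 with the most reads). Striated muscle markers were between 8.97 and 12.0 CPM on day 2 and between 24.4 and 28.2 CPM on day 4, with most reads from Acta1 on day 4. Acta1 and Acta2 encode near-identical actins, and the share of their reads that align to both genes was not tested here. Endoderm markers (Dab2 with the most reads) were between 8.85 and 10.8 CPM on day 2 and between 36.1 and 56.6 CPM on day 4. Trophoblast markers (Eomes with the most reads) were between 11.9 and 14.8 CPM on day 2 and between 133 and 185 CPM on day 4. Endothelium markers were between 104 and 111 CPM on day 2 and between 20.3 and 28.9 CPM on day 4 (Pecam1 with the most reads, Emcn at 0 in every library). Pecam1 had 151 CPM on average on day 0, in undifferentiated cells, 90.5 on day 2 and 16.8 on day 4. In the trophoblast list, Eomes had 88.9 CPM on average on day 4. These list names too stand for their genes and not for cell types. Read counts scale with transcript length, and by UMIs of the day 4 cells the highest genes were Lmod1 in the mature smooth muscle list (4.67 CPM), Foxa2 in the endoderm list (81.3 CPM), Nanog in the stem cell list, Dcn in the fibroblast list and Tek in the endothelium list. Between day 2 and day 4 the libraries did not overlap in the sums of trophoblast, endoderm, striated muscle and mature smooth muscle markers (the last at 11.7 to 15.1 CPM on day 2), which were higher on day 4, and of stem cell and endothelium markers, which were lower, while fibroblast sums overlapped. By single genes in TX1072, 5 of 7 tested fibroblast markers were called higher and 2 lower from day 2 to day 4. Of 4 endothelium markers 2 were higher and 2 lower, and of 8 stem cell markers 2 were higher and 3 lower. Of 6 striated muscle markers 3 were higher and 2 lower. Over all genes, 26.3% were called higher and 23.5% lower from day 2 to day 4 of TX1072. Nothing is thus read from the finding that the lists held genes that moved in this window. The part of the markers in the rise of the 9 genes was not tested.

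Reads over B6 and Cast variants gave the share of each allele, a measure the choice of genes did not use. On day 4 of TX1072, the B6 allele gave 30.4%, 29.1% and 29.9% of allele-specific Acta2 reads in replicates 1, 2 and 3, from at least 1187 such reads per library. All 3 lay below the B6 share of all allele-specific reads, 51.1% to 51.2% in these libraries. The log2 ratio of B6 over Cast was -1.23 ± 0.09 (edgeR with a term per library, adjusted p = 1.7e-18), beside 35.9% of all genes called in either direction and a median over all genes of 0.05. The share was 29.1% ± 0.967 (SD, n = 3) in TXdXicB6 and 32.1% ± 1.23 in TXdXicCast. Cast reads were the majority in each of the 9 day 4 libraries, while the Acta2 level differed 4.51-fold between the deletion lines.

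Cnn1 also leaned to the Cast allele in TX1072, with a B6 share of 38.9% ± 1.60 (log2 ratio -0.64 ± 0.10, edgeR adjusted p = 8.6e-07). Emp1 leaned to B6, with 71.3% ± 8.64 (1.35 ± 0.33, edgeR adjusted p = 6.1e-04), on 80 B6 and 31 Cast reads in all. Tpm1, Cald1, Myl9 and Thbs1 passed with smaller ratios (-0.12 ± 0.04, 0.17 ± 0.05, 0.29 ± 0.12 and -0.26 ± 0.09, edgeR adjusted p = 0.0103, 0.00214, 0.0446 and 0.0232), each of which lost its call in at least 1 alternative. Tagln did not pass (0.14 ± 0.06, edgeR adjusted p = 0.0504), and Tpm2, with 30 B6 and 15 Cast reads, was too low to be tested. The shares of Cald1 and Tpm1 changed over the days, which was not tested. In TX1072 the Cald1 B6 share was 21.7% on day 0, 41.2% on day 2 and 52.9% on day 4. That of Tpm1 was 31.8%, 51.1% and 47.9% on these days. In TXdXicB6 and TXdXicCast, Cald1 had 22.4% and 24.8% on day 0 and 51.4% and 54.6% on day 4. How far mapping favoured either strain at these single genes was not tested.

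The allele ratio was then compared between the deletion lines on day 4. None of the 9 genes was called as different (edgeR, 0 called, 1 at an unadjusted p under 0.05), beside 4.11% of all genes. At that share, 0 calls among 9 genes says nothing about them as a set. A missed threshold does not show that the ratios were alike. The difference in log2 ratio was -0.20 ± 0.14 for Acta2 (adjusted p = 0.754), 0.05 ± 0.07 for Tagln and 0.00 ± 0.05 for Tpm1. Cald1 came nearest, with -0.19 ± 0.06 (edgeR adjusted p = 0.101), and was called under 2 of the alternatives.

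Single cells show how many cells carried each gene. UMI counts do not scale with transcript length. How well each gene was captured was not measured, so genes are compared here by captured UMIs only. There was 1 culture per day, and intervals cover counting error only. Over the 272 day 4 cells, Tpm1 had the most UMIs, 1667 CPM (95% interval 1655 to 1679). Cald1 followed with 626 CPM (95% interval 619 to 633) and Tagln with 609 CPM (95% interval 602 to 616). Acta2 had 147 CPM (95% interval 144 to 151), Tpm2 129 CPM (95% interval 125 to 132), Myl9 82.4 CPM (95% interval 79.8 to 85.1) and Cnn1 76.0 CPM (95% interval 73.5 to 78.6). Thbs1 had 55.7 CPM (95% interval 53.6 to 57.9) and Emp1 1.78 CPM (95% interval 1.42 to 2.22). Over the 10 capture columns of that day, Tagln ranged from 394 to 882 CPM, Cald1 from 476 to 833 CPM, and Acta2 from 45.9 to 214 CPM. Over these columns Cald1 and Tagln overlapped, as did each neighbouring pair from Acta2 through Tpm2 (72.7 to 167 CPM), Myl9 (50.2 to 114 CPM) and Cnn1 (44.1 to 145 CPM) to Thbs1 (39.3 to 82.8 CPM), so the order within these groups is not resolved. Tpm1 lay above Cald1, Tagln above Acta2 and Thbs1 above Emp1 without overlap.

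To compare shares of cells across days, each cell was thinned to 40000 UMIs. Acta2 was then seen in 0 of 277 cells on day 0. This allows a share of cells with a UMI of up to 1.08% (3 cells of 277), or 1.32% by the exact 95% interval. It sets no limit on cells that express Acta2. Acta2 was seen in 12 of 325 cells on day 1, 6 of 341 on day 2, 20 of 257 on day 3 and 83 of 272 on day 4. The day 4 share was 30.5% (95% interval 25.1 to 36.4). Tagln was seen in 4.99% (95% interval 2.93 to 7.86) of cells on day 2, 61.9% (95% interval 55.6 to 67.8) on day 3 and 91.5% (95% interval 87.6 to 94.6) on day 4. Tpm1 was seen in 74.0% (95% interval 68.4 to 79.1) on day 0 and in all 272 cells on day 4. Without thinning the day 4 shares were 43.8% for Acta2 and 97.4% for Tagln. On day 0 the bulk libraries held next to no RNA of either gene. On that day 0.361% of cells had an unthinned UMI of Acta2 and 0.361% of Tagln. The median depth was 138565 UMIs per cell, against 171158 on day 4. Background on days 3 and 4, when other cells held more of this RNA, was not measured.

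**Figure D4:**
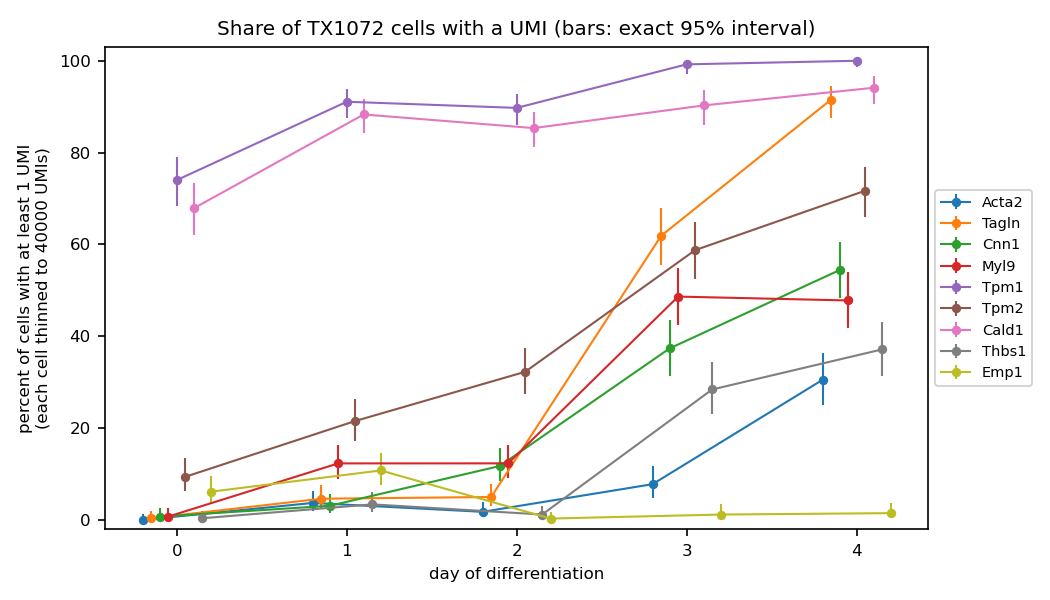
Percent of retained TX1072 cells with at least 1 UMI of each gene after thinning every cell to 40000 UMIs, by day (277, 325, 341, 257 and 272 cells; bars are exact 95% binomial intervals for counting error). Tpm1 and Cald1 are in most cells from day 0, Tagln comes up between days 2 and 3, and Acta2 stays in a minority of cells on day 4.

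Acta2 was the most unevenly spread of the abundant genes. On day 4, the 28 highest cells, 10% of all, held 84.7% of its thinned UMIs, and 11 cells held at least 50% of them. The highest 10% of cells held 65.2% for Thbs1, 51.2% for Myl9, 50.8% for Cnn1 and 37.5% for Tpm2. For Tagln it held 32.9%, for Cald1 29.6% and for Tpm1 20.9%. A single cell held up to 104 Acta2 UMIs of 40000, while 189 cells held none. On day 3, 2 cells held at least 50% of the 165 thinned Acta2 UMIs. Tagln moved from 21 cells holding at least 50% on day 3 to 51 on day 4.

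**Figure D5:**
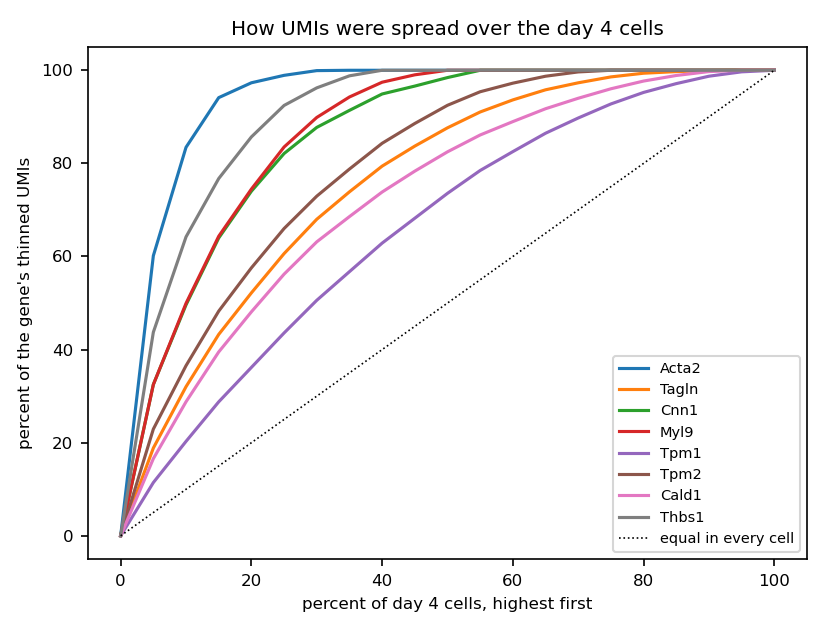
Cumulative percent of a gene's thinned UMIs (vertical axis) held by the given percent of day 4 cells, ordered from the highest cell down, for the 8 genes with at least 100 thinned UMIs; the dotted line is an equal level in every cell. Acta2 bends most, with 84.7% of UMIs in the highest 10% of cells, and Tpm1 least, with 20.9%.

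The Acta2 cells were high for the other genes too. The day 4 cells were split into 189 with no thinned Acta2 UMI, 48 with 1 to 9 and 35 with 10 or more. These classes are ranges of 1 gene and not cell types, with 21 cells at a single UMI and 14 at 5 to 14, near the limits. At least 2 cells with 10 or more came from each of the 10 capture columns. Tagln had 447 CPM (95% interval 439.8 to 455), 772 CPM (95% interval 753 to 792) and 1132 CPM (95% interval 1107 to 1158) in the 3 classes. Cald1 had 469.8 CPM, 732 CPM and 1190.1 CPM, and Thbs1 33.0 CPM, 66.6 CPM and 143 CPM. Tpm1, Tpm2, Cnn1 and Myl9 followed the same order, and so did Fn1 (149 CPM, 236 CPM and 435 CPM), which was looked at after its bulk values were seen. Cells with no thinned Acta2 UMI, which held 61 Acta2 UMIs in all before thinning, still had 447 CPM of Tagln, which 89.4% of them carried.

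Several marker lists of other cell types also differed between the 3 Acta2 classes, in the order 0, 1 to 9 and 10 or more UMIs. The 8 stem cell markers summed to 306 CPM, 230.5 CPM and 127 CPM, with Nanog at 108 CPM, 74.1 CPM and 34.4 CPM. The keratin genes Krt8 and Krt18 of simple epithelia, chosen after their values were seen, had 323 CPM, 588 CPM and 1246 CPM for Krt8 and 651 CPM, 1244 CPM and 2439 CPM for Krt18. Striated muscle markers summed to 21.1 CPM, 73.2 CPM and 205 CPM, of which Acta1 gave 11.9 CPM, 67.8 CPM and 175 CPM. Fibroblast markers were at 16.7 CPM, 22.0 CPM and 32.5 CPM, and endoderm markers at 157 CPM, 135 CPM and 80.2 CPM. The other lists did not follow the order of the classes, with mature smooth muscle markers at 6.12 CPM, 19.4 CPM and 18.6 CPM, endothelium markers at 4.91 CPM, 6.66 CPM and 5.47 CPM and trophoblast markers at 169 CPM, 219 CPM and 149.6 CPM. The classes also differed in depth, with a median of 164269 UMIs per cell with no thinned Acta2 UMI and 203167 in the highest class. Sites with several cells had been removed by eye in the study. The part of depth, cell state and remaining doublets in these differences was not tested.

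Among pairs of genes over the 272 day 4 cells, log2(thinned UMIs + 1) correlated most for Tagln and Tpm1 (r = 0.68), Tpm1 and Cald1 (r = 0.54) and Tagln and Cald1 (r = 0.54). Acta2 had r of 0.40 with Cald1 and 0.37 with Tagln. These cells share 1 culture and its library, and the thinned UMIs of a gene ranged from 17 for Emp1 to 17598 for Tpm1. Against the sum of the others, Tagln had r = 0.73, Tpm1 0.71, Cald1 0.60, Acta2 0.45 and Emp1 0.07. Of 4568 other genes with at least 500 thinned UMIs on day 4, those most like the sum of the 9 across cells were Myl12a, Sfn, Ahnak, Krt8, Pdlim7, Sparc, Bex1, Anxa2, Bex3 and Clu, with r from 0.623 to 0.676 against a median of -0.01. Myl12a encodes another myosin regulatory light chain, Pdlim7 an actin-associated adaptor and Krt8 a keratin. Krt8 went from 11.8 CPM in day 2 cells to 511 in day 4 cells.

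Cells were also split by Xist, the RNA that starts X inactivation. On day 3 the 9 genes summed to 2441 CPM (95% interval 2406 to 2476) in 63 cells with no thinned Xist UMI, 2128 CPM (95% interval 2091 to 2165) in 48 cells with 1 to 4 and 1803 CPM (95% interval 1783 to 1822) in 146 cells with 5 or more. On day 4 the sums were 3746 CPM (95% interval 3713 to 3779), 3869.5 CPM (95% interval 3823 to 3916) and 3074 CPM (95% interval 3052 to 3096) in 81, 45 and 146 cells. Cells with the most Xist had the lowest sum on both days, though not every gene followed the sum. On day 4, Myl9 had 71.2 CPM without Xist and 89.0 CPM with 5 or more, and Thbs1 had 47.6 and 57.3 CPM. Tpm2 had 120 and 130 CPM and Cnn1 75.9 and 78.0 CPM, with overlapping intervals. On day 3 Tpm2 alone went that way, with 47.9 and 75.4 CPM. Tagln, Tpm1, Cald1, Emp1 and Acta2 were lower with 5 or more on both days. Acta2 had 193 CPM (95% interval 186 to 201) without Xist and 122 CPM (95% interval 118 to 127) with 5 or more on day 4. The split by Acta2 did not mirror this, since day 4 cells with 0, 1 to 9 and 10 or more Acta2 UMIs had 369 CPM (95% interval 362 to 376), 304 CPM (95% interval 292 to 317) and 400.4 CPM (95% interval 386 to 416) of Xist. The median depth on day 4 was 171152, 147244 and 176328 UMIs per cell in the Xist classes, and its part was not tested. With 1 culture per day these differences have no replicate check, and a few cells hold most Acta2.

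UMIs were also assigned by splicing state. Unspliced shares depend on intron length and on priming within introns, so each gene is compared with itself over days. Beyond counting error, the share was higher on day 4 for Cald1, going from 5.04% (95% interval 4.44 to 5.69) on day 0 to 10.3% (95% interval 9.93 to 10.6) on day 4, and for Thbs1, from 0.566% (95% interval 0.259 to 1.07) on day 3 to 3.13% (95% interval 2.50 to 3.88) on day 4. For Cnn1 it was lower on day 4, 1.88% (95% interval 1.46 to 2.39), than on day 2 alone, 7.21% (95% interval 4.18 to 11.4). The Cnn1 intervals of days 1 and 3 overlapped that of day 4, with 2.50% (95% interval 0.304 to 8.74) and 2.58% (95% interval 1.92 to 3.38). Tpm1 went from 9.10% (95% interval 8.19 to 10.1) on day 0 to 5.03% (95% interval 4.57 to 5.52) on day 1 and 7.36% (95% interval 7.18 to 7.55) on day 4. For Tagln the intervals overlapped between day 3, 0.0895% (95% interval 0.0409 to 0.170), and day 4, 0.206% (95% interval 0.156 to 0.267), as they did for Acta2, with 2.32% (95% interval 1.20 to 4.02) and 2.34% (95% interval 1.99 to 2.73). The intervals of Tpm2 and of Myl9 overlapped over all days. The share over all genes was between 10.7% and 13.3% over the 5 days.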

How the data were processed

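RNA counts per gene were deposited by the authors as raw integer counts for 45 bulk libraries and as UMI counts for 2000 capture sites. Reads were aligned to GRCm38 (mm10) with STAR 2.5.2b, per the labels and the study's methods. Bulk reads were counted with featureCounts and single-cell UMIs with the Drop-seq pipeline. Allele-specific counts were split with SNPsplit. Cells were those the study lists as retained, and 75 spike-in rows were left out. The deposited counts were fitted here with edgeR 4.0.16 (TMM, filterByExpr, quasi-likelihood test, R 4.3.3), 15 TX1072 and 30 deletion-line libraries apart, with Benjamini-Hochberg adjustment over all genes. DESeq2 1.42.0 was an alternative. Allele counts were fitted with 1 term per library. The fits were tested on simulated data. Thinning and exact 95% intervals (Poisson, Clopper-Pearson) used numpy 2.4.6 and scipy 1.17.1. UMIs are molecules, but bulk reads carry no identifiers, so all intervals cover counting error only. The 40 row barcodes are shared by all capture columns by design, and cell names are unique. Day 1 cells were sequenced in 2 runs, which the files do not tell apart.

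The 9 genes, the related lists and the marker lists were chosen with earlier results of these data known. In each list the called genes with the 4 smallest adjusted p were named, exceptions being said in the text, as were the 10 genes most like the 9 in bulk and in day 4 cells. Some genes that this rule names are not reported here. Replicates were separate differentiations, and the study states that each was started on another day, so replicate numbers pair samples. Deviations from group means correlated with a median of 0.19 between same-numbered and -0.10 between other TX1072 libraries, and 0.21 and -0.14 in the deletion lines. The alternatives were DESeq2, its size factors, TMM over autosomal genes, no filter, a replicate block and leaving out each replicate. TX1072 replicate 1 came from the cell population used for single cells.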

Additional observations from a re-analysis of the deposited data

Results flagged for a closer look

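Emp1 moved in opposite directions in the deletion lines. From day 2 to day 4 its log2 fold was -1.32 in TXdXicB6, where each day 4 library was below each day 2 library, and 1.45 in TXdXicCast, where each was above. The difference between the lines was not tested, because it helped to choose the gene. Counts were low, 25 to 38 per day 4 library in TXdXicB6 and 71 to 240 in TXdXicCast.

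In single cells, 4 of 32 sets of 10 capture columns held a column far from the others by Dixon's ratio, where chance flags about 1 in 20 sets. Tagln had 10.0 CPM in capture column 9 of day 2 (33 cells), against at most 5.17 CPM in the other columns. Tpm1 had 286 CPM in capture column 2 of day 1 (30 cells), against at most 222 CPM in the other columns. Thbs1 had 114 CPM in capture column 8 of day 3 (25 cells), against at most 67.0 CPM in the other columns. Emp1 had 13.9 CPM in capture column 1 of day 0 (28 cells), against at most 6.65 CPM in the other columns.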

How the results depend on the processing

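The direction of each of the 9 genes' day changes held in every setting tried, which were DESeq2, its size factors, autosomal TMM, no filter, the replicate block and leaving out each replicate number. Of the line differences, Emp1 on day 3 without replicate 2 (0.0289, the range without a replicate being -0.58 to 0.0289) and Myl9 on day 4 without replicate 1 (0.00344) or replicate 2 (0.0578, range -0.16 to 0.0578) reversed, and the cause was not tested. Calls of listed genes were lost in 11 of 432 gene and setting pairs for TX1072 day 4 against day 2, but in 34 of 81 and 32 of 128 for the line difference on days 3 and 4, most of them with 2 libraries per group.

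Genes called between the lines numbered 80 on day 1 (147 by DESeq2, 198 with no filter, 2 to 24 without a replicate) and 74 on day 2 (139 by DESeq2, 200 with no filter, 124 with the replicate block, 0 to 30 without a replicate). On day 3 they numbered 251 (504 by DESeq2, 575 with no filter, 447 with the block, 10 to 43 without a replicate number and 49 without the TXdXicCast library that stood apart, a setting chosen after seeing the data). On day 4 they numbered 1165 (1772 with the block, 342 to 424 without a replicate), and on day 0 3929 (791 to 2924 without a replicate). Of the 9 genes, 4 were called on day 0 with no filter, beside 10.2% of all genes in that fit, and 0 to 1 without a replicate.

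Listed genes lower on day 3 numbered 16 by DESeq2, 19 with no filter, 14 with the block, 1 without that library and 0 to 1 without a replicate. Those higher numbered 1, 2 and 1 by DESeq2, with no filter and with the block. On day 4 those lower numbered 5 to 8 and those higher 0 without a replicate, and DESeq2 called 0 higher. Listed genes that fell from day 2 to day 4 numbered 2 to 4 without a replicate in TX1072, and 5 with the block in TXdXicCast. The 9310 genes called in TXdXicB6 became 6150 to 7826 without a replicate. The replicate block changed no other count by over 1.5 times. Allele calls among the 9 genes numbered 4 to 7 in TX1072 without a replicate. Between lines they numbered 0 to 1 without a replicate and 1 with TMM factors from the allele-specific counts, the 1 gene being Cald1.

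In cells, the share with Acta2 on day 3 was 4.67% when at least 2 UMIs were asked for. On day 4 it was 22.8%, and 43.8% unthinned. For Tagln these were 52.5% and 72.0% on day 3, and 83.5% and 97.4% on day 4. Leaving out a capture column or keeping every site with at least 40000 UMIs was checked for the thinned shares with at least 1 UMI. None of these, for Acta2 and Tagln on days 3 and 4, moved beyond its interval. Acta2, with 0 to 4 counts in each day 0 bulk library, and Emp1 after day 2 were limited by counts.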

Other observations

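Across day 4 cells, genes lowest in likeness to the sum of the 9 genes were Tdh, Ncl, Trim28, Npm1 and Mkrn1 (r from -0.538 to -0.440 over 272 cells, a description). Tdh, a threonine dehydrogenase typical of mouse embryonic stem cells, had 169 CPM in day 2 cells and 90.7 CPM in day 4 cells.

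Emp1 was seen in few cells, at a level too low to limit the share of cells that express it. It was seen after thinning in 17 of 277 cells on day 0, 35 of 325 on day 1, 1 of 341 on day 2, 3 of 257 on day 3 and 4 of 272 on day 4.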
